A study of Mus musculus with 9 samples.

Results

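Cells sorted as eosinophils from the quadriceps muscle of mdx mice were compared with cells sorted in the same way from IL5Tg mice. The comparison used the 3 libraries named mdx S4, S5 and S6 and the 3 named IL5Tg S7, S8 and S9, which are 6 of the 9 libraries of the series, and every difference is given as mdx minus IL5Tg. mdx is a dystrophin-deficient strain that models Duchenne muscular dystrophy, and IL5Tg mice carry an interleukin-5 transgene. The other 3 libraries, mdx_IL5Tg S1, S2 and S3, combine both. They were not part of the contrast but entered the filter on low counts, the scaling and the estimate of the spread between libraries. The average levels used to choose the named genes include them too. All mice were adult, and live cells that were CD45+ and SiglecF+ and CD11c-, Gr1- and MHCII- were collected by flow cytometry. The groups differ both in the dystrophy and in the transgene, so within this contrast alone the contribution of each cannot be told apart. The mdx_IL5Tg libraries differ from mdx by the transgene and from IL5Tg by the dystrophy, and their levels are given beside some genes as a description. The promoter that drives the transgene is not given in the sources used here. The strain label reads mdx for every sample, IL5Tg included, and goes against the titles, from which the groups were taken.

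Eosinophils are granulocytes that carry cationic granule proteins and take part in allergic and tissue inflammation. Interleukin-5 drives their formation in the bone marrow and their survival in tissue, through the receptor chains Il5ra and Csf2rb, the kinases Jak2 and Lyn, and the transcription factor STAT5. In dystrophic muscle, fibres break down and regenerate repeatedly, and eosinophils, macrophages and matrix-producing fibroblasts gather around them. The series is titled for Trem2, which senses lipids on macrophages and related cells.

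Total counts ran from 26752780 to 41627444 in the 6 libraries. Library pairs correlated at 0.957 to 0.987 within mdx and 0.972 to 0.976 within IL5Tg, and at 0.901 to 0.950 from one group to the other (Pearson correlation over genes of log2 CPM, counts scaled to a common library size). The design text calls the replicates biological. Within mdx, S5 stood apart, with 0.383% of its counts from the mitochondrial genome against 1.28% to 2.29% in the other 5 libraries. IL5Tg S7 was the highest of the 6 libraries in the summed levels of the proliferation, granule and neutrophil lists, and mdx S6 was the highest mdx library in neutrophil genes. Calls of named genes that end, and values that move by over 1.5 times, without 1 library or without both IL5Tg S7 and mdx S5 are given beside each result.

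Il5, the gene of the transgene, checked the labels. It was at 0.335, 0.402 and 0.265 CPM in mdx S4, S5 and S6 and 523, 317 and 460.5 CPM in IL5Tg S7, S8 and S9 (log2 change -10.35, SE 0.28, edgeR adjusted p = 1.4e-08). The groups were far apart, and Il5 was detected at a trace level in mdx. Dmd, the dystrophin gene, was at 6.93, 2.74 and 5.33 CPM in mdx and 6.62, 5.45 and 5.29 CPM in IL5Tg (log2 change -0.21, edgeR adjusted p = 0.68), with overlapping groups. Since the mdx allele is a point mutation and can still be transcribed, this level does not check the mdx label. Ccr3, the eotaxin receptor that marks eosinophils, was high in every library, at 1109, 809 and 1134 CPM in mdx and 827, 1011 and 1064 CPM in IL5Tg, and the groups overlapped. Siglecf, the surface protein used to sort the cells, was at 164, 129 and 177 CPM in mdx and 329.9, 336 and 394 CPM in IL5Tg and was lower in mdx (log2 change -1.17, SE 0.16, edgeR adjusted p = 7.9e-04).

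Of 15886 genes tested, 1874 rose and 1424 fell in mdx (edgeR quasi-likelihood test, Benjamini-Hochberg adjusted p under 0.05), which is 11.8% higher, 8.96% lower and 20.8% called in either direction. In 22.2% of genes all mdx libraries lay above all IL5Tg libraries, and in 19.7% all lay below. Past 2-fold, 1275 genes rose and 721 fell, and past 8-fold 200 rose and 107 fell. The median log2 change of all genes was 0.013. Genes called higher numbered 1149 without mdx S4 and 1245, 975 and 948 without IL5Tg S7, S8 or S9, and DESeq2 called 2207 lower. Of the called genes 56.8% were higher, a share that went to 70.7% with library totals only and to 47.4%, 45.8% and 48.3% without IL5Tg S7, S8 or S9.

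**Figure D1:**
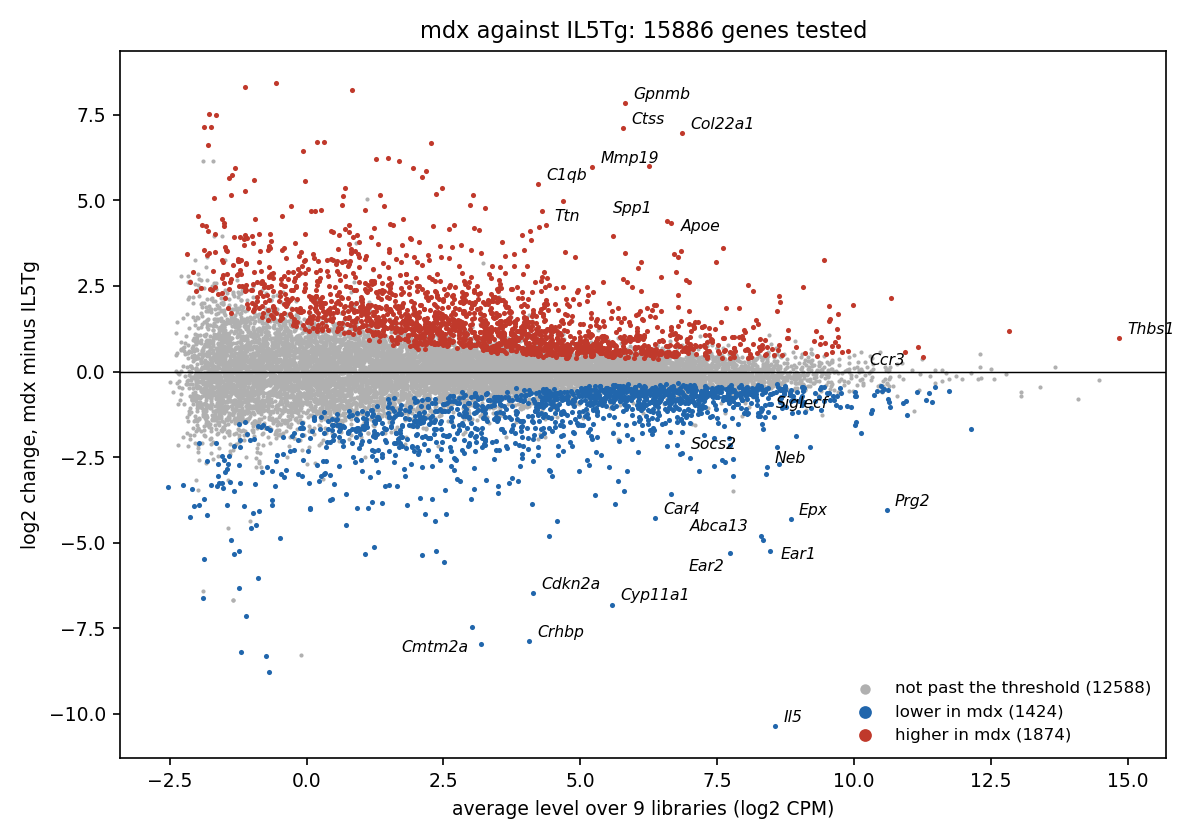
Average level of each of the 15886 genes tested (x axis, log2 CPM over 9 libraries) against its log2 change, mdx minus IL5Tg (y axis); red points are the 1874 genes called higher, blue the 1424 called lower and grey the rest. Il5 lies lowest at -10.35 and Gpnmb is the highest labelled gene at 7.86.

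The 14 largest rises among well expressed genes were led by products of phagocytes and of matrix. Gpnmb, a lysosome-associated glycoprotein of phagocytes, was at 214, 132 and 88.3 CPM in mdx S4, S5 and S6 and 0.800, 0.227 and 0.857 CPM in IL5Tg S7, S8 and S9 (log2 change 7.86, SE 0.59, edgeR adjusted p = 1.9e-05). Every mdx library lay above every IL5Tg library. Ctss, the lysosomal protease cathepsin S, went from 1.18, 0.357 and 1.53 CPM in IL5Tg to 202, 145 and 75.3 CPM in mdx (log2 change 7.12). Col22a1, a collagen of tissue junctions, was at 124, 265 and 147 CPM in mdx S4, S5 and S6 and 1.38, 1.3 and 1.6 CPM in IL5Tg S7, S8 and S9 (log2 change 6.97, SE 0.32, edgeR adjusted p = 7.2e-07). Unlike Gpnmb and Ctss, which were highest in mdx S4, Col22a1 was highest in mdx S5. Mmp19, a matrix metalloproteinase, was at 136, 63.6 and 73.7 CPM in mdx against 1.25, 0.941 and 2.16 CPM in IL5Tg (log2 change 5.98). The 3 complement genes C1qa, C1qb and C1qc, which macrophages make, had log2 changes of 4.79, 5.47 and 4.87. In bulk RNA, more cells of a type and more RNA of its genes per cell cannot be told apart. The growth-linked imprinted RNA H19 had a log2 change of 4.99, Spp1 (osteopontin) 4.40, Apoe (apolipoprotein E) 4.35 and the giant sarcomere protein Ttn 4.27. The class II genes H2-Eb1 and H2-Aa changed by 4.70 and 4.23, and the endosomal GTPase Rab7b by 4.19. H19 was at 4.30 without mdx S4, C1qc was at 6.05 without IL5Tg S9, H2-Eb1 was at 5.32 without IL5Tg S7, as log2 changes. Spp1 was at 3.72 without mdx S4, Ttn was at 3.65 without mdx S4, as log2 changes.

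The 14 largest falls held genes that were nearly silent in mdx. Cyp11a1, the enzyme that starts steroid hormone synthesis, was at 0.921, 0.536 and 0.820 CPM in mdx S4, S5 and S6 and 89.5, 94.8 and 76.9 CPM in IL5Tg S7, S8 and S9 (log2 change -6.81, SE 0.23, edgeR adjusted p = 6.4e-08). Crhbp, which binds corticotropin-releasing hormone, was at 0.167, 0.167 and 0.0482 CPM in mdx and 26.5, 34.7 and 29.3 CPM in IL5Tg (log2 change -7.87). Cdkn2a, a locus of cell cycle inhibitors, was at 0.105, 0.402 and 0.313 CPM in mdx and 18.6, 22.2 and 29.6 CPM in IL5Tg (log2 change -6.48). For these 3 genes every mdx library was below 1 CPM and the IL5Tg libraries differed little. Cmtm2a and Cmtm1, chemokine-like genes whose annotated spans overlap so that their counts are uncertain, changed by -7.95 and -7.46. Car4, a carbonic anhydrase, was at 2.95, 3.95 and 2.99 CPM in mdx and 62.8, 53.4 and 76.2 CPM in IL5Tg (log2 change -4.29, SE 0.20, edgeR adjusted p = 9.1e-07). Abca13, an ATP-binding cassette transporter, changed by -4.79, the potassium channel Kcnk5 by -4.38 and the endothelial lipase gene Lipg by -4.81. The eosinophil ribonucleases Ear1, Ear2 and Ear6 and the peroxidase Epx, whose values follow with the granule genes, complete the list with Il5. Cmtm2a was at -9.47 without mdx S6, Cmtm1 was at -6.81 without mdx S4 and -8.37 without mdx S6, Lipg was at -4.08 without IL5Tg S7 and -3.87 without IL5Tg S7 and mdx S5, as log2 changes.

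**Figure D2:**
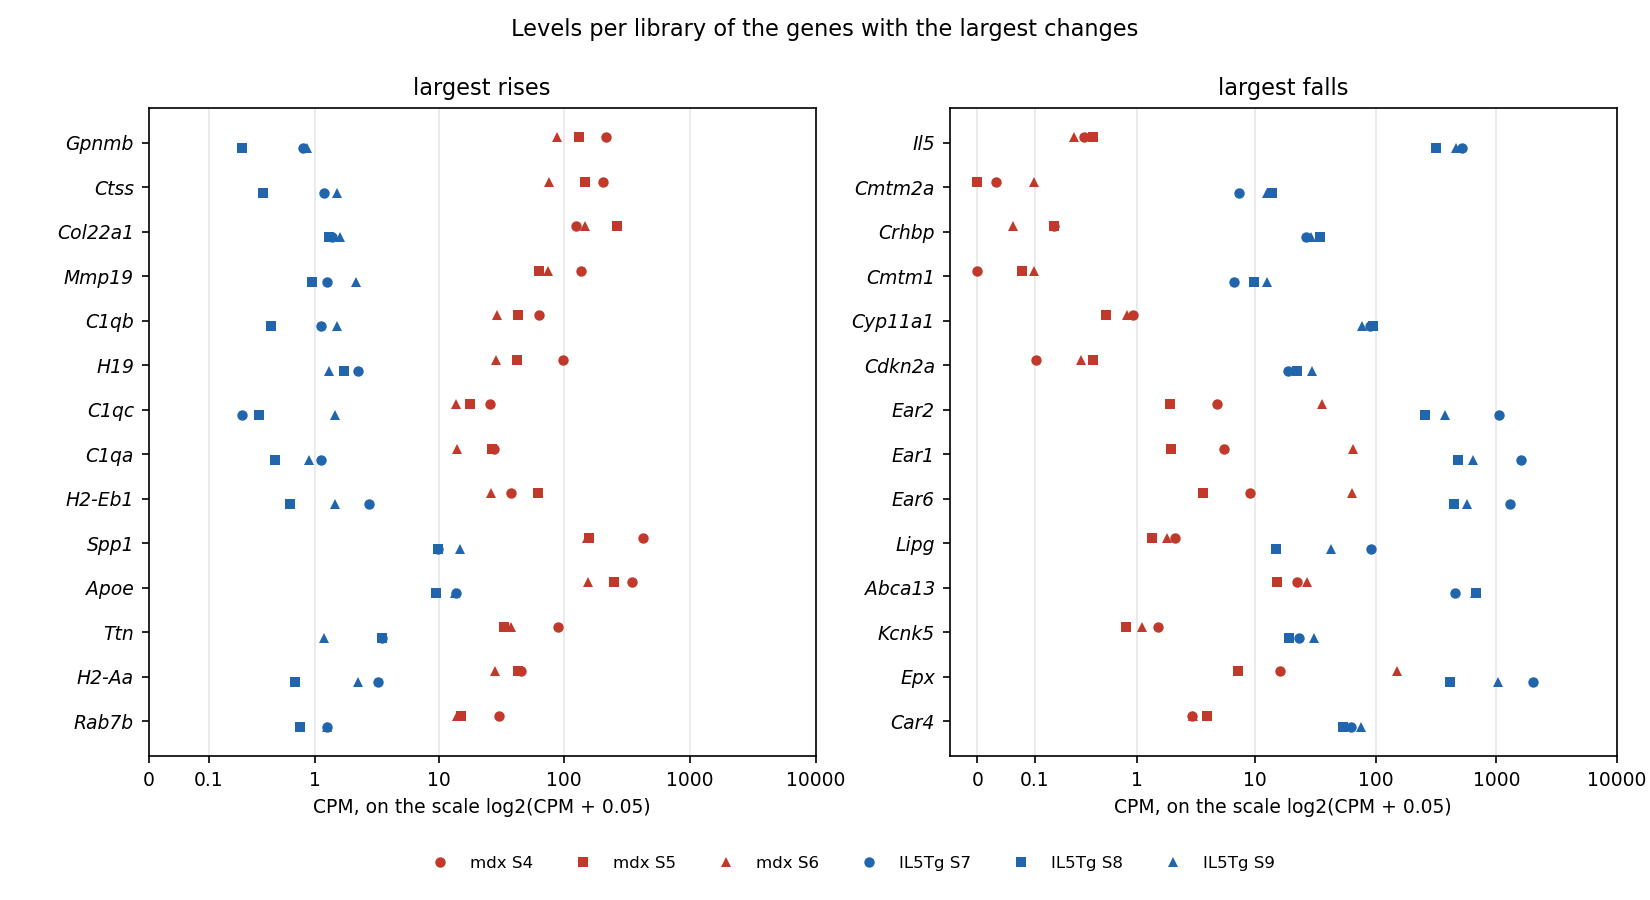
Level per library (x axis, CPM on the scale log2(CPM + 0.05)) of the 14 genes with the largest rises (left) and the 14 with the largest falls (right); red symbols are the mdx libraries and blue symbols the IL5Tg libraries. The groups do not overlap for any gene, as the naming rule required, and mdx S6 is the highest mdx library for the Ear genes and Epx.

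The mdx_IL5Tg libraries, which were not part of the contrast, were set beside these genes as a description. Their mean lay between the other group means for 14 of the 14 largest rises and was nearer to mdx for 9 of them. Col22a1 was at 177, 163 and 161 CPM in mdx_IL5Tg S1, S2 and S3, within the range of the mdx libraries, and Gpnmb at 19.1, 36.6 and 13.9 CPM. For the 14 largest falls the mean of mdx_IL5Tg was nearer to IL5Tg in 11 cases and above both groups in 6. Car4 was at 207, 152 and 177 CPM there and Cyp11a1 at 50.6, 65.2 and 52.2 CPM. Over all called genes, 1371 of the 1874 higher and 965 of the 1424 lower genes had a mdx_IL5Tg mean nearer to IL5Tg than to mdx. The same share over all genes tested was not computed, so these counts stand without a background.

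Interleukin-5 receptor and STAT5 response genes gave calls in both directions. Of 20 genes tested, 6 fell, 3 rose and 11 did not pass, where 8.96% of all genes fell and 11.8% rose. The median log2 change of the list was -0.27, against 0.013 for all genes. Socs2, a feedback inhibitor that STAT5 induces, was at 27.2, 26.2 and 26.5 CPM in mdx S4, S5 and S6 and 144, 144 and 131 CPM in IL5Tg S7, S8 and S9 (log2 change -2.39, SE 0.13, edgeR adjusted p = 2.7e-06). The libraries of each group lay close together and far from the other group. Bcl2l1, which encodes the survival protein Bcl-xL, was at 23.7, 26.7 and 17.3 CPM in mdx and 76.0, 78.3 and 68.1 CPM in IL5Tg (log2 change -1.72, SE 0.16, edgeR adjusted p = 8.8e-05). The cytokine Osm was at 148, 125 and 176 CPM in mdx and 359, 307 and 445 CPM in IL5Tg, and the D-type cyclin Ccnd3 at 67.4, 76.1 and 71.1 CPM in mdx and 138, 124 and 145 CPM in IL5Tg, with log2 changes of -1.31 and -0.93. Mdx lay below IL5Tg without overlap for each of these. The survival gene Bcl2 and the kinase Lyn also fell, with log2 changes of -1.37 and -0.70. Stat5a, Stat5b and the kinase Pim1 rose, with log2 changes of 0.74, 0.55 and 0.73. Cish, another feedback inhibitor that STAT5 induces, was at 173, 209 and 202 CPM in mdx S4, S5 and S6 and 206, 222 and 232 CPM in IL5Tg S7, S8 and S9 (log2 change -0.18, edgeR adjusted p = 0.36), and the groups overlapped. The receptor chains Il5ra and Csf2rb had log2 changes of 0.02 and -0.35 and did not pass. Stat5a lost the call without IL5Tg S9 (edgeR adjusted p = 0.053). Stat5b lost the call without any one of the 6 libraries, with RLE factors, with only the 6 libraries compared and without IL5Tg S7 and mdx S5 (edgeR adjusted p 0.054 to 0.16). Pim1 lost the call without mdx S5, mdx S6, IL5Tg S7, IL5Tg S8 or IL5Tg S9 and without IL5Tg S7 and mdx S5 (edgeR adjusted p 0.062 to 0.16). Csf2rb passed without IL5Tg S7 and without IL5Tg S7 and mdx S5. Interleukin-5 response genes called higher numbered 1 without mdx S5, mdx S6, IL5Tg S7 or IL5Tg S8 and 0 without IL5Tg S9.

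The promoter window of Cish is shown because it holds a pair of the STAT5-type motif TTCNNNGAA, while its level did not separate the groups. Windows are RefSeq's (build GRCm38.p6, 250 bases before to 50 after a start, read on the gene's strand), and capitals mark the motif:
Cish, chr9:107296629-107296708, plus strand: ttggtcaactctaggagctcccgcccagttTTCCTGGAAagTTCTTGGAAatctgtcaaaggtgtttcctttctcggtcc
Among all windows of tested genes 6.9% held this motif on either strand, and 7.1% of the windows of higher and 6.2% of those of lower genes. In the interleukin-5 list 3 of 20 windows held it, those of Cish, Csf2rb2 and Socs3. A match describes these letters and is not a bound site.

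The list of eosinophil granule proteins had the lowest median of the 29 lists. Of 10 granule protein genes tested 6 fell and 4 did not pass, where 8.96% of all genes fell (median log2 change -3.83). Prg2, the major basic protein, was at 79.3, 96.1 and 503 CPM in mdx S4, S5 and S6 and 6997, 1611 and 2690.5 CPM in IL5Tg S7, S8 and S9 (log2 change -4.06, SE 0.85, edgeR adjusted p = 0.012). Every mdx library was below every IL5Tg library, but mdx S6 was well above the other mdx libraries and IL5Tg S7 was the highest in its group. Epx, the eosinophil peroxidase, was at 16.1, 7.13 and 151 CPM in mdx and 2019.8, 416 and 1029 CPM in IL5Tg (log2 change -4.32, SE 1.17, edgeR adjusted p = 0.035). In mdx_IL5Tg S1, S2 and S3, Prg2 was at 651, 689 and 515 CPM and Epx at 151, 191 and 139 CPM. The ribonucleases Ear1, Ear2 and Ear6 changed by -5.25 (SE 1.27), -5.29 (SE 1.13) and -4.92 (SE 1.06), and Prg3 by -3.60 (SE 0.88). Ear genes are paralogs that may share reads, so each of their values is uncertain. The lipoxygenase Alox15 and the granule proteoglycan Srgn, at log2 changes of -0.60 and -0.13, did not pass. Ear2 and Ear6 lost the call without mdx S4 and with only the 6 libraries compared (edgeR adjusted p 0.053 to 0.072). Ear1 lost the call without mdx S4, with no filter on low counts and with only the 6 libraries compared (edgeR adjusted p 0.069 to 0.095). Epx lost the call without mdx S4, IL5Tg S7, IL5Tg S8 or IL5Tg S9, with no filter on low counts, with only the 6 libraries compared and without IL5Tg S7 and mdx S5 (edgeR adjusted p 0.052 to 0.12). Prg2 lost the call with only the 6 libraries compared (edgeR adjusted p = 0.053). Prg3 lost the call without mdx S4 or mdx S5, with no filter on low counts, with only the 6 libraries compared and without IL5Tg S7 and mdx S5 (edgeR adjusted p 0.054 to 0.087). Alox15 passed without mdx S5, with DESeq2, with no filter on low counts and without IL5Tg S7 and mdx S5. Ear2 was at -7.41 without mdx S6, -4.53 without IL5Tg S7 and -3.96 without IL5Tg S7 and mdx S5, Ear1 was at -7.96 without mdx S6, -4.60 without IL5Tg S7 and -4.01 without IL5Tg S7 and mdx S5, Ear6 was at -6.96 without mdx S6 and -3.81 without IL5Tg S7 and mdx S5, as log2 changes. Epx was at -6.68 without mdx S6, -3.69 without IL5Tg S7 and -3.12 without IL5Tg S7 and mdx S5, Prg2 was at -5.46 without mdx S6, -3.30 without IL5Tg S7 and -2.88 without IL5Tg S7 and mdx S5, Prg3 was at -5.21 without mdx S6, -2.91 without IL5Tg S7 and -2.45 without IL5Tg S7 and mdx S5, as log2 changes. Granule genes called lower numbered 1 without mdx S4 and 0 with only the 6 libraries compared.

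Genes of cycling cells and neutrophil markers had their highest sums in the libraries with the most Prg2, IL5Tg S7 and, within mdx, S6. The summed level of the 22 proliferation genes was 283, 236 and 296 CPM in mdx S4, S5 and S6, so S6 was little above S4. In IL5Tg it was 286 to 895 CPM, the highest value being that of IL5Tg S7. Of the proliferation genes 3 fell and 0 rose (median log2 change -0.996), where 8.96% of all genes fell and 11.8% rose. The 3 were Rrm2, a subunit of ribonucleotide reductase, the mitotic motor Kif11 and the topoisomerase Top2a. Mki67, a marker of cycling cells, was at 32.4, 10.1 and 42.7 CPM in mdx and 202, 44.3 and 87.8 CPM in IL5Tg (log2 change -1.97, edgeR adjusted p = 0.055) and did not pass. The neutrophil granule gene Ngp was at 7.22, 1.10 and 132 CPM in mdx and 861, 337 and 368 CPM in IL5Tg, and Mpo, the myeloperoxidase of early granulocytes, at 1.13, 1.04 and 28.2 CPM in mdx and 96.3, 13.5 and 8.54 CPM in IL5Tg. Both were highest in IL5Tg S7 and, within mdx, in S6. Of 14 neutrophil markers tested 2 rose and 2 fell, where 11.8% of all genes rose and 8.96% fell. Mmp9 and Csf3r rose and Cxcr2 and Ly6g fell. The part of cycling and neutrophil genes in the granule result was not tested. Prg2 lost the call with only the 6 libraries compared (edgeR adjusted p = 0.053). Rrm2 lost the call without mdx S4 or mdx S5, with no filter on low counts, with only the 6 libraries compared and without IL5Tg S7 and mdx S5 (edgeR adjusted p 0.053 to 0.11). Kif11 lost the call without mdx S4, mdx S5 or IL5Tg S7, with no filter on low counts and without IL5Tg S7 and mdx S5 (edgeR adjusted p 0.057 to 0.14). Top2a lost the call without mdx S4, mdx S5 or IL5Tg S7, with limma voom, with no filter on low counts, with only the 6 libraries compared and without IL5Tg S7 and mdx S5 (adjusted p 0.066 to 0.21). Mmp9 lost the call without IL5Tg S7 and mdx S5 (edgeR adjusted p = 0.054). Csf3r lost the call without mdx S4, mdx S6, IL5Tg S8 or IL5Tg S9, with no filter on low counts and with only the 6 libraries compared (edgeR adjusted p 0.055 to 0.12). Ly6g lost the call without mdx S4, mdx S5, IL5Tg S7, IL5Tg S8 or IL5Tg S9, with library totals only, with no filter on low counts, with only the 6 libraries compared and without IL5Tg S7 and mdx S5 (edgeR adjusted p 0.056 to 0.22). Mki67 passed without mdx S6 or IL5Tg S8, with DESeq2, with RLE factors, with the stricter filter and without mitochondrial, haemoglobin and small RNA genes. Mpo passed without mdx S6. Ngp passed without mdx S6 and with limma voom. Prg2 was at -5.46 without mdx S6, -3.30 without IL5Tg S7 and -2.88 without IL5Tg S7 and mdx S5, Rrm2 was at -1.28 without IL5Tg S7 and -0.94 without IL5Tg S7 and mdx S5, Kif11 was at -1.19 without IL5Tg S7 and -0.82 without IL5Tg S7 and mdx S5, as log2 changes. Top2a was at -0.92 without IL5Tg S7 and -0.68 without IL5Tg S7 and mdx S5, Csf3r was at 3.81 without IL5Tg S7 and 4.20 without IL5Tg S7 and mdx S5, Ly6g was at -2.75 without mdx S4, -8.47 without mdx S6, -2.75 without IL5Tg S7 and -2.21 without IL5Tg S7 and mdx S5, as log2 changes. Proliferation genes called lower numbered 0 without mdx S4 or mdx S5, 1 without IL5Tg S7 and 13 without IL5Tg S8. Neutrophil genes called higher numbered 1 without mdx S4, mdx S6, IL5Tg S8 or IL5Tg S9. Neutrophil genes called lower numbered 1 without mdx S4, mdx S5, IL5Tg S7, IL5Tg S8 or IL5Tg S9 and 8 without mdx S6.

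Most surface and lineage genes of eosinophils did not pass. Of 15 identity genes 4 fell, 1 rose and 10 did not pass, where 8.96% of all genes fell and 11.8% rose (median -0.28). Il1rl1, the receptor for interleukin-33, was at 402, 359.7 and 418 CPM in mdx S4, S5 and S6 and 1041, 1434 and 1608 CPM in IL5Tg S7, S8 and S9 (log2 change -1.79, SE 0.17, edgeR adjusted p = 1.0e-04). Gata2, a transcription factor of granulocyte precursors and mature eosinophils, was at 18.7, 18.2 and 18.2 CPM in mdx and 86.1, 53.8 and 52.2 CPM in IL5Tg (log2 change -1.80, SE 0.19, edgeR adjusted p = 1.8e-04). Neither gene overlapped between groups. Xbp1, a secretory pathway factor needed for eosinophil formation, changed by -1.27 (SE 0.15). Cebpa, a myeloid lineage factor, was the member that rose, at 33.4, 27.9 and 20.3 CPM in mdx and 5.76, 5.29 and 4.32 CPM in IL5Tg (log2 change 2.40, SE 0.38, edgeR adjusted p = 0.0017). The eosinophil factor Gata1, Cebpe, Spi1 and the receptor Il5ra had log2 changes of 0.03, -0.15, 0.10 and 0.02, and none of these passed.

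**Figure D3:**
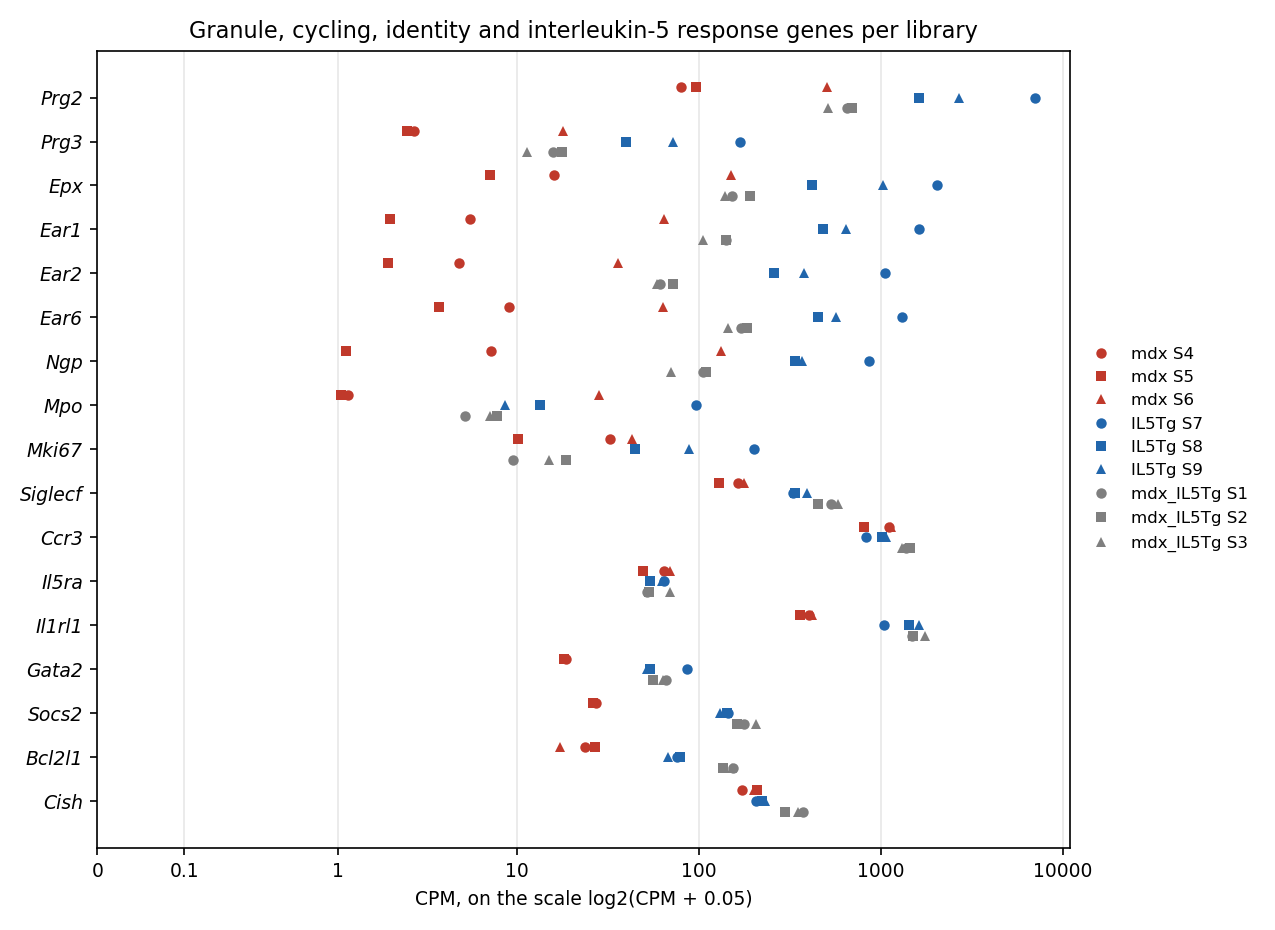
Level per library (x axis, CPM on the scale log2(CPM + 0.05)) of granule genes, cycling and neutrophil genes, eosinophil identity genes and interleukin-5 response genes; red symbols are mdx, blue IL5Tg and grey mdx_IL5Tg libraries. The mdx libraries spread widely in the granule genes and in Ngp and Mpo, while Socs2 and Bcl2l1 show tight groups and Ccr3, Il5ra and Cish overlap.

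Among 18 activation and surface receptors 4 rose, 5 fell and 9 did not pass, where 11.8% of all genes rose and 8.96% fell. Cd274, the checkpoint ligand PD-L1, was at 120.3, 115 and 123 CPM in mdx and 302, 418 and 319.9 CPM in IL5Tg (log2 change -1.54, SE 0.15, edgeR adjusted p = 1.0e-04), with the mdx libraries below. Cd101, an inhibitory surface receptor, was at 45.3, 44.9 and 33.3 CPM in mdx and 4.51, 9.18 and 8.83 CPM in IL5Tg (log2 change 2.46, SE 0.25, edgeR adjusted p = 1.5e-04), with the mdx libraries above. Itgax, which encodes the CD11c that the sort selected against, was at 138, 102 and 122 CPM in mdx and 41.3, 55.6 and 44.1 CPM in IL5Tg, a log2 change of 1.36 (SE 0.17). The adhesion ligand Icam1 also rose, by 1.31, while the glycoprotein Cd24a fell, with a log2 change of -1.22, as did the costimulatory ligand Cd80, with -0.84. Of 18 adhesion and chemotaxis genes 3 rose and 2 fell, where 11.8% of all genes rose and 8.96% fell. The leukotriene B4 receptor Ltb4r1 was at 35.6, 43.4 and 39.1 CPM in mdx and 79.6, 65.1 and 82.2 CPM in IL5Tg (log2 change -0.94), and the integrin Itgal at 439, 624 and 447 CPM in mdx and 309, 323 and 291 CPM in IL5Tg (log2 change 0.71). Itgal lost the call without IL5Tg S9 (edgeR adjusted p = 0.07). Activation genes called higher numbered 7 without mdx S5. Adhesion genes called higher numbered 1 without IL5Tg S9.

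Of the NF-kB and cytokine genes 12 of 21 rose, where 11.8% of all genes rose and 8.96% fell. NF-kB is a family of dimeric transcription factors that Nfkbia holds in the cytoplasm until a signal releases them. The other 9 did not pass and 0 fell in edgeR, with 1 lower at an unadjusted p under 0.05 and 1 called lower by DESeq2 (median log2 change 0.75). Of the subunits, Relb was at 164, 208 and 162 CPM in mdx S4, S5 and S6 and 73.4, 75.2 and 70.9 CPM in IL5Tg S7, S8 and S9 (log2 change 1.28, SE 0.14, edgeR adjusted p = 2.0e-04), and Nfkb2 at 480.4, 751 and 528 CPM in mdx and 256, 243 and 262 CPM in IL5Tg (log2 change 1.21, SE 0.17, edgeR adjusted p = 9.0e-04). Rela, Rel and Nfkb1 changed by 0.75 (SE 0.11), 0.70 (SE 0.12) and 0.58 (SE 0.13), so that all 5 subunits rose without overlap of the groups. Over all genes tested, mdx lay above without overlap in 22.2%. The inhibitor Nfkbia, itself a target of NF-kB, was at 388, 634 and 379 CPM in mdx and 197, 137 and 159 CPM in IL5Tg (log2 change 1.51, SE 0.25, edgeR adjusted p = 0.0022). Of the secreted products, the neutrophil-attracting chemokine Cxcl3 was at 137, 146 and 188 CPM in mdx S4, S5 and S6 and 25, 25.8 and 49.6 CPM in IL5Tg S7, S8 and S9 (log2 change 2.23, SE 0.28, edgeR adjusted p = 5.2e-04). The mdx libraries were each above 100 CPM and the IL5Tg libraries each below 50 CPM. Il1b, interleukin-1 beta, was at 514, 841 and 502 CPM in mdx and 253, 81.3 and 119 CPM in IL5Tg (log2 change 2.04), and the monocyte chemokine Ccl2, at 18.5, 6.43 and 13.8 CPM in mdx and 2.94, 3.44 and 2.98 CPM in IL5Tg, changed by 2.05. Tnf, Il6 and Tnfaip3, at log2 changes of 0.15, -0.20 and 0.28, did not pass. Nfkb1 lost the call without IL5Tg S9 (edgeR adjusted p = 0.066).

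Promoter windows of 3 genes that rose are shown because they hold the NF-kB consensus, in capitals. For Nfkb2, with several starts, the first window is given:
Nfkb2, chr19:46304668-46304765, plus strand: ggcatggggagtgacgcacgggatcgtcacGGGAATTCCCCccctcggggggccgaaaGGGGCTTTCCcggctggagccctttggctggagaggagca
Nfkbia, chr12:55492637-55492706, minus strand: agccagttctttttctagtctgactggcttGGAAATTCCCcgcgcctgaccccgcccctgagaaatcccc
Cxcl3, chr5:90785998-90786068, plus strand: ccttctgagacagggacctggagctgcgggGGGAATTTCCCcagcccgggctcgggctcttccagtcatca
The consensus stood in 10.5% of all windows of tested genes, in 14.8% of those of higher genes and in 7.4% of those of lower genes. It stood in 10 of 21 windows of this list (47.6%) and in 7 of 13 windows of its members called higher (53.8%). Cxcl2, Il6 and Tnfaip3 hold the consensus too and did not pass. Windows of one gene can overlap, so these shares count some bases more than once. Both this motif and the interferon-stimulated response element were chosen after the gene values were seen.

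Immediate early genes, which respond within minutes to signals and to handling, gave 3 of 21 higher and 4 lower (median 0.004), where 11.8% of all genes were higher and 8.96% lower. The share of higher genes is near that of all genes. Egr2 was at 33.7, 31.6 and 31.4 CPM in mdx and 6.18, 6.39 and 10.2 CPM in IL5Tg (log2 change 2.09, SE 0.21, edgeR adjusted p = 1.3e-04). Fos, by contrast, was at 336, 278 and 347 CPM in mdx and 650, 523 and 827 CPM in IL5Tg (log2 change -1.06, SE 0.18, edgeR adjusted p = 0.0029), with the mdx libraries below. The nuclear receptor Nr4a2 fell as well, with a log2 change of -0.90 (SE 0.23), and the phosphatase Dusp2 rose, with 1.65 (SE 0.42). Nr4a2 lost the call without mdx S5 and without IL5Tg S7 and mdx S5 (edgeR adjusted p 0.052 to 0.11). Dusp2 lost the call without mdx S5, IL5Tg S8 or IL5Tg S9 (edgeR adjusted p 0.065 to 0.085). Immediate early genes called higher numbered 1 without IL5Tg S8 or IL5Tg S9. Immediate early genes called lower numbered 2 without mdx S4 or IL5Tg S9.

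Interferon response genes rose in 10 of 20 cases, where 11.8% of all genes rose. In edgeR 0 fell and 10 did not pass (median log2 change 0.83). Rsad2, the antiviral protein viperin, was at 48.3, 43.5 and 35.7 CPM in mdx S4, S5 and S6 and 19.9, 8.24 and 8.39 CPM in IL5Tg S7, S8 and S9 (log2 change 1.80, SE 0.33, edgeR adjusted p = 0.004). IL5Tg S7 was above the other 2 IL5Tg libraries but below all mdx libraries. Ifit2, which blocks translation of foreign RNA, was at 25.9, 16.4 and 16.3 CPM in mdx and 6.88, 5.16 and 3.99 CPM in IL5Tg (log2 change 1.87, SE 0.39, edgeR adjusted p = 0.0081). Irf7, a transcription factor of the response, was at 49.7, 39.6 and 46.6 CPM in mdx and 28.5, 19.7 and 24.3 CPM in IL5Tg, and Bst2, which tethers virus particles, at 15.6, 25.1 and 12.6 CPM in mdx and 9.38, 4.77 and 6.04 CPM in IL5Tg, with log2 changes of 0.91 and 1.40. Isg15 did not pass, at 18.4, 39.7 and 18.0 CPM in mdx and 30.5, 15.8 and 20.9 CPM in IL5Tg. Bst2 lost the call without IL5Tg S8 or IL5Tg S9 (edgeR adjusted p 0.054 to 0.057). Interferon genes called higher numbered 4 without mdx S4 and 3 without IL5Tg S8 or IL5Tg S9.

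The windows of 3 genes that rose carry the interferon-stimulated response element, shown in capitals:
Rsad2, chr12:26456533-26456602, minus strand: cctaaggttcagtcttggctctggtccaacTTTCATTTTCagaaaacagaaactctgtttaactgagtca
Ifit3, chr19:34583343-34583446, plus strand: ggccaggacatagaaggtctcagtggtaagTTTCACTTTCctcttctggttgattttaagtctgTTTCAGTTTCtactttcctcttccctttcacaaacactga
Oas1a, chr5:120907500-120907575, minus strand: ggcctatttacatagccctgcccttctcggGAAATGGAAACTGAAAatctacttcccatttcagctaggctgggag
Ifit3 was at 13.7, 11.8 and 7.98 CPM in mdx and 7.14, 3.05 and 2.87 CPM in IL5Tg (log2 change 1.36, SE 0.42, edgeR adjusted p = 0.043) and Oas1a at 10.3, 10.7 and 6.56 CPM in mdx and 4.96, 1.88 and 1.71 CPM in IL5Tg (log2 change 1.69, SE 0.42, edgeR adjusted p = 0.018). The groups overlapped for neither gene. This element stood in 3.1% of all windows, in 3.8% of those of higher genes and in 3.1% of those of lower genes. It stood in 11 of 18 windows of the interferon list (61.1%) and in 5 of 8 windows of its members called higher (62.5%). Ddx58, Gbp2, Ifit1, Ifitm3, Isg15 and Stat2 hold the element too and did not pass. Ifit3 lost the call without mdx S4, mdx S5, IL5Tg S8 or IL5Tg S9 (edgeR adjusted p 0.091 to 0.15). Oas1a lost the call without mdx S4, IL5Tg S8 or IL5Tg S9 (edgeR adjusted p 0.052 to 0.074). Oas1a was at 2.30 without IL5Tg S7 as a log2 change.

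The type 2 cytokine Il4 fell while several repair mediators rose. Of 16 genes of this list tested, 8 rose, 3 fell and 5 did not pass (median 0.80). Among all genes 11.8% rose and 8.96% fell. Il4, a type 2 cytokine, was at 6.18, 6.59 and 8.61 CPM in mdx S4, S5 and S6 and 19.3, 17.4 and 19.2 CPM in IL5Tg S7, S8 and S9 (log2 change -1.39, SE 0.18, edgeR adjusted p = 5.9e-04). Il13, a related cytokine, was at 2.97, 2.64 and 3.54 CPM in mdx and 9.31, 4.54 and 7.83 CPM in IL5Tg (log2 change -1.24, SE 0.27, edgeR adjusted p = 0.0095), and the receptor Il4ra changed by -0.51 (SE 0.14). None of these overlapped between groups. Tgm2, a transglutaminase that crosslinks matrix, was at 7077, 6675 and 7769 CPM in mdx S4, S5 and S6 and 2558, 3476 and 3356 CPM in IL5Tg S7, S8 and S9 (log2 change 1.20, SE 0.16, edgeR adjusted p = 6.4e-04). Thbs1, the matrix glycoprotein thrombospondin 1, was the most abundant gene of the list, at 30155, 34059 and 35287 CPM in mdx and 13070, 17128 and 19948 CPM in IL5Tg (log2 change 0.99). Tgfb1, a profibrotic growth factor, was at 225, 272 and 239.7 CPM in mdx and 151, 159 and 173 CPM in IL5Tg, and the mesenchymal growth factor gene Pdgfa at 13.3, 11.4 and 11.4 CPM in mdx and 4.13, 2.37 and 3.58 CPM in IL5Tg, with log2 changes of 0.61 and 1.84. Arg1, an arginine-degrading enzyme of repair macrophages, was at 8.12, 2.74 and 4.61 CPM in mdx and 0.128, 0.260 and 0.820 CPM in IL5Tg and had a log2 change of 3.71. Igf1, a growth factor for regenerating fibres, was at 38.6, 12.4 and 23.0 CPM in mdx and 9.92, 7.85 and 8.83 CPM in IL5Tg (log2 change 1.48), highest in mdx S4. Il10, an anti-inflammatory cytokine, rose from levels below 1 CPM in IL5Tg, with a log2 change of 3.64. The eotaxins Ccl11 and Ccl24 did not pass, and Retnla was not analysed here. Il13 lost the call without IL5Tg S7 and mdx S5 (edgeR adjusted p = 0.054). Il4ra lost the call without mdx S4, mdx S6, IL5Tg S8 or IL5Tg S9 and with only the 6 libraries compared (edgeR adjusted p 0.055 to 0.095). Il10 lost the call without IL5Tg S9 (edgeR adjusted p = 0.052). Igf1 lost the call without mdx S4, IL5Tg S8 or IL5Tg S9 (edgeR adjusted p 0.063 to 0.069). Ccl24 passed without IL5Tg S9. Arg1 was at 4.66 without IL5Tg S9, Il10 was at 5.03 without IL5Tg S7 and 5.30 without IL5Tg S7 and mdx S5, as log2 changes. Type 2 and repair genes called lower numbered 5 without IL5Tg S7.

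Energy metabolism changed modestly. Of 20 glycolysis and hypoxia genes 5 fell, 1 rose and 14 did not pass (median -0.34). Among all genes 8.96% fell and 11.8% rose. Gpi1, the enzyme that isomerises glucose 6-phosphate, was at 234, 251 and 270.2 CPM in mdx S4, S5 and S6 and 623, 492 and 591 CPM in IL5Tg S7, S8 and S9 (log2 change -1.18, SE 0.14, edgeR adjusted p = 4.6e-04). The glucose transporter Slc2a3 was at 362, 498 and 464 CPM in mdx and 609, 771 and 991 CPM in IL5Tg (log2 change -0.84) and lactate dehydrogenase Ldha at 381, 446 and 382 CPM in mdx and 588, 595 and 676 CPM in IL5Tg (log2 change -0.62). Pfkp, a phosphofructokinase, and Gapdh, a glycolytic dehydrogenase, changed by -0.78 and -0.58. Pdk1, which inhibits pyruvate dehydrogenase, was the member that rose, with a log2 change of 0.52 (SE 0.16). Slc2a3 lost the call without IL5Tg S9 (edgeR adjusted p = 0.051). Ldha and Gapdh lost the call without mdx S4 or IL5Tg S9 (edgeR adjusted p 0.05 to 0.072). Pdk1 lost the call without any one of the 6 libraries, with limma voom, with RLE factors, with no filter on low counts, with only the 6 libraries compared and without IL5Tg S7 and mdx S5 (adjusted p 0.063 to 0.16). Glycolysis genes called higher numbered 0 without mdx S5, mdx S6, IL5Tg S7, IL5Tg S8 or IL5Tg S9. Glycolysis genes called lower numbered 3 without mdx S4 and 2 without IL5Tg S9.

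A window of Ldha is shown because it holds the hypoxia core ACGTG, in capitals, several times:
Ldha, chr7:46845629-46845804, plus strand: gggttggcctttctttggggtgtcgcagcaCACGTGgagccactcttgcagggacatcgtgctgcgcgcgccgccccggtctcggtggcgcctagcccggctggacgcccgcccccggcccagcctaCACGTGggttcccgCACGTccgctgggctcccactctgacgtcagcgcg
The core stood in 24.5% of all windows, in 21.2% of those of higher genes and 24.1% of those of lower genes, and in 14 of 26 windows of the glycolysis list.

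Of 18 nuclear genes of the respiratory chain 2 rose and 2 fell, where 11.8% of all genes rose and 8.96% fell. The succinate dehydrogenase subunit Sdha was higher, with a log2 change of 0.53 (SE 0.12). The cytochrome oxidase subunit Cox5a was lower, with a log2 change of -0.54 (SE 0.14). Of 13 mitochondrially encoded genes 0 passed in edgeR (median -1.06). Of these genes 2 were lower at an unadjusted p under 0.05, and DESeq2 called 1 lower. Their summed level was 3772, 380.4 and 3803 CPM in mdx S4, S5 and S6 and 4836 to 6695 CPM in IL5Tg. mdx S5 was far below the rest. Without it mt-Co2 and mt-Co3 passed, at log2 changes of -0.67 and -0.77 (edgeR adjusted p = 0.031 for each). Sdha lost the call without IL5Tg S8 or IL5Tg S9 (edgeR adjusted p 0.06 to 0.071). Cox5a lost the call without mdx S4, mdx S6, IL5Tg S7 or IL5Tg S9 and with library totals only (edgeR adjusted p 0.05 to 0.063). Nuclear respiratory genes called higher numbered 1 without IL5Tg S7 and 0 without IL5Tg S8 or IL5Tg S9. Nuclear respiratory genes called lower numbered 1 without mdx S4, mdx S5, mdx S6 or IL5Tg S9 and 0 without IL5Tg S7.

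Lipid genes went both ways. Of 21 tested 6 rose and 4 fell, where 11.8% of all genes rose and 8.96% fell (median 0.47). Lpl, the lipoprotein lipase, was at 81.5, 54.0 and 56.8 CPM in mdx S4, S5 and S6 and 16.9, 9.80 and 10.2 CPM in IL5Tg S7, S8 and S9 (log2 change 2.38, SE 0.34, edgeR adjusted p = 9.8e-04). Abca1, a cholesterol exporter, was at 759, 721 and 660.4 CPM in mdx and 274, 395 and 265 CPM in IL5Tg (log2 change 1.20, SE 0.22, edgeR adjusted p = 0.0039), and the lipid droplet protein gene Plin2 changed by 0.80. Sqle, an enzyme of cholesterol synthesis, was at 4.79, 2.61 and 5.26 CPM in mdx and 15.4, 12.1 and 16.5 CPM in IL5Tg (log2 change -1.79, SE 0.26, edgeR adjusted p = 0.0012), and the synthesis gene Idi1 fell as well, with a log2 change of -0.97. Idi1 lost the call without mdx S4, mdx S5, mdx S6, IL5Tg S7 or IL5Tg S9, with limma voom, with library totals only and without IL5Tg S7 and mdx S5 (adjusted p 0.058 to 0.19). Plin2 lost the call without mdx S4 or IL5Tg S7 and without IL5Tg S7 and mdx S5 (edgeR adjusted p 0.063 to 0.085). Lipid genes called higher numbered 3 without mdx S4, IL5Tg S8 or IL5Tg S9. Lipid genes called lower numbered 2 without mdx S4 or IL5Tg S7 and 1 without mdx S6 or IL5Tg S9.

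Heat shock and chaperone genes were lower, with 7 of 16 falling and 1 rising (median -0.55). Among all genes 8.96% fell and 11.8% rose. The co-chaperone Dnaja1 was at 300.4, 253 and 299.7 CPM in mdx and 627, 574 and 792 CPM in IL5Tg (log2 change -1.22, SE 0.15, edgeR adjusted p = 4.0e-04), and Hsp90aa1, an inducible chaperone, at 626, 614 and 551 CPM in mdx and 1042, 999 and 1626 CPM in IL5Tg (log2 change -1.03). IL5Tg S9 was the highest library in both. Hsf1, the factor that controls these genes, was the one that rose, with a log2 change of 0.68 (SE 0.17). Among 17 heme, iron and oxidative stress genes 2 rose and 3 fell, where 11.8% of all genes rose and 8.96% fell. The transferrin receptor Tfrc was at 26.4, 24.3 and 26.4 CPM in mdx and 48.2, 40.0 and 41.5 CPM in IL5Tg (log2 change -0.75). The quinone reductase Nqo1 was at 17.8, 9.67 and 13.1 CPM in mdx and 26.1, 45.0 and 32.1 CPM in IL5Tg (log2 change -1.35). Hmox1, heme oxygenase 1, did not pass (1817, 1992 and 1921 CPM in mdx and 1519, 3225 and 3526 CPM in IL5Tg). Hsf1 lost the call without mdx S4, mdx S6, IL5Tg S7 or IL5Tg S9 (edgeR adjusted p 0.056 to 0.09). Hmox1 passed without IL5Tg S7 and without IL5Tg S7 and mdx S5. Heat shock genes called higher numbered 0 without mdx S4, mdx S6, IL5Tg S7 or IL5Tg S9. Heat shock genes called lower numbered 3 without mdx S5 or mdx S6 and 2 without IL5Tg S9. Heme and iron genes called higher numbered 1 without mdx S4 or IL5Tg S8 and 0 without mdx S6 or IL5Tg S9. Heme and iron genes called lower numbered 5 without IL5Tg S7.

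Lysosome and phagocyte genes rose in 12 of 20 cases and fell in 2, where 11.8% of all genes rose and 8.96% fell (median 1.19). Trem2, the receptor named in the series title, was at 15.4, 12.2 and 5.69 CPM in mdx S4, S5 and S6 and 0.160, 0.325 and 0.0746 CPM in IL5Tg S7, S8 and S9 (log2 change 5.85, SE 0.65, edgeR adjusted p = 2.2e-04). All mdx libraries were above 5 CPM and all IL5Tg libraries below 1 CPM. The proteases Lgmn (legumain), Ctsb and Ctsl were at log2 changes of 3.47, 2.53 and 1.69. Ctsb, cathepsin B, was at 729.6, 495 and 366 CPM in mdx and 101, 80.0 and 95.1 CPM in IL5Tg. The receptor tyrosine kinases Axl and Mertk, which clear dying cells, changed by 2.47 (SE 0.40) and 1.32 (SE 0.33). Lamp2, a lysosomal membrane protein, and Cst7, a protease inhibitor, were the members that fell, with log2 changes of -0.72 and -1.56. Ctsd, the most abundant lysosomal protease of the list, did not pass (1487, 1314 and 1389 CPM in mdx and 1049.5, 1748 and 1783 CPM in IL5Tg), nor did Lamp1 and the adaptor Tyrobp, through which Trem2 signals. Lamp2 lost the call with library totals only (edgeR adjusted p = 0.053). Mertk lost the call without mdx S4, IL5Tg S8 or IL5Tg S9 (edgeR adjusted p 0.067 to 0.077). Trem2 was at 6.45 without IL5Tg S8 as a log2 change.

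Markers of macrophages moved with these genes. Of 18 macrophage markers tested 15 rose, 0 fell and 3 did not pass, where 11.8% of all genes rose (median 3.43). Ms4a7, a macrophage surface gene, was at 10.1, 6.83 and 4.08 CPM in mdx S4, S5 and S6 and 0.224, 0.0325 and 0 CPM in IL5Tg S7, S8 and S9 (log2 change 6.25, SE 0.72, edgeR adjusted p = 2.9e-04), and the mannose receptor Mrc1 at 45.1, 28.4 and 26.3 CPM in mdx and 1.82, 1.62 and 2.87 CPM in IL5Tg (log2 change 3.99, SE 0.46, edgeR adjusted p = 3.1e-04). The Fc receptor gene Fcgr1 was at 20.4, 5.99 and 8.29 CPM in mdx and 0.640, 0.454 and 0.708 CPM in IL5Tg (log2 change 4.26) and the lipopolysaccharide co-receptor gene Cd14 at 156, 92.6 and 74.7 CPM in mdx and 20.0, 13.4 and 16.5 CPM in IL5Tg (log2 change 2.70). The groups did not overlap for any of the 4. The summed level of the macrophage list was 738 to 1233 CPM in mdx and 252 to 277 CPM in IL5Tg, and without Csf1r, its largest member, 406 to 821 and 47.3 to 63.0 CPM. The order of the sums within mdx was S4, then S5, then S6, the order also seen for Gpnmb, Ctss, Apoe and Trem2. Not every gene followed it, as Fcgr1 was lowest in mdx S5. Apoe and Mertk stand in both this list and the lysosome list. The part of macrophages in the phagocyte result was not tested. Fcgr1 was at 3.54 without mdx S4, Ms4a7 was at 8.36 without IL5Tg S7 and 8.44 without IL5Tg S7 and mdx S5, as log2 changes.

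Class II and dendritic cell genes, whose MHC class II product the sort selected against, rose in 8 of 11 cases and fell in 0 (median 3.24). Among all genes 11.8% rose. Cd74, the invariant chain, was at 113, 103 and 80.8 CPM in mdx S4, S5 and S6 and 8.93, 4.61 and 5.59 CPM in IL5Tg S7, S8 and S9 (log2 change 3.96, SE 0.46, edgeR adjusted p = 3.1e-04). H2-Ab1, a class II chain that shares sequence with its relatives, was at 39.1, 40.5 and 25.4 CPM in mdx and 3.04, 0.681 and 2.35 CPM in IL5Tg (log2 change 4.11). All mdx libraries were above 25 CPM and all IL5Tg libraries below 4 CPM. The peptide loading gene H2-DMb1 changed by 3.92, and the class II regulator Ciita by 3.24. The list summed to 185 to 280.4 CPM in mdx and 14.2 to 30.2 CPM in IL5Tg; the dendritic cell markers Xcr1 and Clec9a were too low to test. Of 12 monocyte markers 8 rose and 1 fell, where 11.8% of all genes rose and 8.96% fell. The monocyte sums overlapped, at 917 to 1187 CPM in mdx and 657 to 955 CPM in IL5Tg. Without Plac8, the largest member, they were 449 to 938 and 282 to 585 CPM and overlapped too. The chemokine receptors Ccr2 and Cx3cr1 rose (1.87 and 5.35), F13a1, a clotting factor subunit of monocytes, was at 56.1, 32.6 and 23.7 CPM in mdx and 3.30, 2.04 and 4.21 CPM in IL5Tg (log2 change 3.56), and Ly6c2, a surface protein of inflammatory monocytes, fell from 221, 84.3 and 81.8 CPM in IL5Tg to 13.5, 5.02 and 16 CPM in mdx (log2 change -3.48). Ccr2 lost the call without mdx S4, IL5Tg S7 or IL5Tg S8, with limma voom and with no filter on low counts (adjusted p 0.058 to 0.1). Ciita lost the call without mdx S4, mdx S6, IL5Tg S7, IL5Tg S8 or IL5Tg S9 and without IL5Tg S7 and mdx S5 (edgeR adjusted p 0.05 to 0.072). Ly6c2 was at -2.49 without IL5Tg S7 and mdx S5, H2-DMb1 was at 4.51 without IL5Tg S7 and 4.51 without IL5Tg S7 and mdx S5, Ccr2 was at 1.07 without mdx S4, as log2 changes. Ciita was at 3.90 without IL5Tg S7 and mdx S5, Cx3cr1 was at 4.74 without mdx S4, 6.58 without IL5Tg S7 and 7.03 without IL5Tg S7 and mdx S5, as log2 changes. Monocyte genes called higher numbered 5 without mdx S4 or IL5Tg S7. Monocyte genes called lower numbered 2 without mdx S5 or IL5Tg S8.

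**Figure D4:**
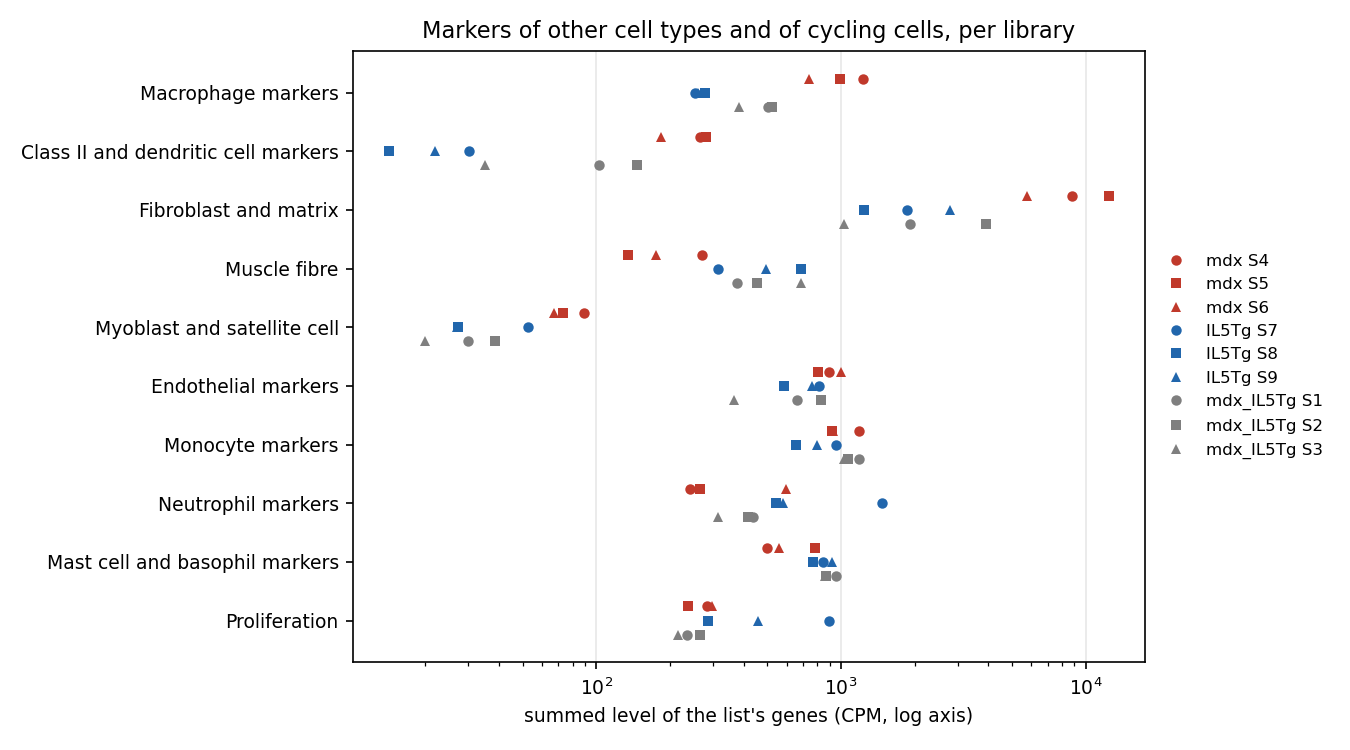
Summed level of each marker list per library (x axis, CPM, log axis) for other cell types and cycling cells; red symbols are mdx, blue IL5Tg and grey mdx_IL5Tg libraries. Macrophage sums were 738 to 1233 CPM in mdx against 252 to 277 CPM in IL5Tg, and Neb alone makes up most of the muscle fibre sum in IL5Tg.

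Muscle and matrix genes were higher in mdx as well. Of 18 muscle fibre genes 16 rose, 1 fell and 1, Dmd, did not pass (median 2.92). Among all genes 11.8% rose and 8.96% fell. Ttn, at 89.4, 32.9 and 37.9 CPM in mdx S4, S5 and S6 and 3.55, 3.50 and 1.19 CPM in IL5Tg S7, S8 and S9, and the skeletal actin gene Acta1, at 19.2, 9.71 and 10.8 CPM in mdx and 1.31, 1.78 and 1.6 CPM in IL5Tg, changed by 4.27 (SE 0.48) and 3.08 (SE 0.31). The fast-fibre genes Actn3 and Mylpf rose as well, by 3.29 and 2.73, from levels below 1 CPM. Neb, a giant protein of thin filaments in muscle, went the other way, at 78.4, 44.1 and 83.4 CPM in mdx S4, S5 and S6 and 294, 664 and 473 CPM in IL5Tg S7, S8 and S9 (log2 change -2.80, SE 0.35, edgeR adjusted p = 5.3e-04). With Neb the list summed to 135 to 270.5 CPM in mdx and 314 to 688 CPM in IL5Tg, and without it to 91.0 to 192 and 19.3 to 23.6 CPM. The muscle marker Mb and the myosin gene Myh2 were too low to test. Of 9 myoblast and satellite cell genes 7 rose and 1, Ncam1, fell. The myogenic factor Myog was at 7.98, 6.33 and 4.36 CPM in mdx and 0.800, 0.584 and 0.149 CPM in IL5Tg and the satellite cell factor Pax7 at 1.3, 1.04 and 1.59 CPM in mdx and 0.0960, 0.0974 and 0.0373 CPM in IL5Tg (log2 changes 3.58 and 4.01). Ncam1 lost the call without mdx S5 or IL5Tg S7, with library totals only, with no filter on low counts, with only the 6 libraries compared and without IL5Tg S7 and mdx S5 (edgeR adjusted p 0.055 to 0.12). Ttn was at 3.65 without mdx S4, Ncam1 was at -0.51 without IL5Tg S7 and mdx S5, as log2 changes. Myoblast genes called lower numbered 0 without mdx S5 or IL5Tg S7.

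Fibroblast and matrix genes rose in 14 of 16 cases and fell in 0, where 11.8% of all genes rose (median 2.41). Col3a1, a fibrillar collagen, was at 1546, 2218 and 915 CPM in mdx S4, S5 and S6 and 139, 98.7 and 247 CPM in IL5Tg S7, S8 and S9 (log2 change 3.27, SE 0.52, edgeR adjusted p = 0.0021), and Postn, the matrix protein periostin, at 377, 167 and 144 CPM in mdx and 24.1, 16.3 and 23.4 CPM in IL5Tg (log2 change 3.43, SE 0.49, edgeR adjusted p = 0.0013). Pdgfra, a receptor that marks fibroblast and adipocyte progenitors, was at 18.7, 17.8 and 12.5 CPM in mdx and 2.69, 1.95 and 3.28 CPM in IL5Tg (log2 change 2.63). For these 3 the mdx libraries all lay above. Summed, the list was at 5765 to 12419 CPM in mdx and 1238 to 2782 CPM in IL5Tg, with mdx S5 the highest. The proteoglycan Dcn was at 122, 32.7 and 72.9 CPM in mdx and 49.8, 26.9 and 59.7 CPM in IL5Tg and did not pass. Whether fibre, matrix or phagocyte RNA came from the sorted cells or from material sorted with them was not tested.

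Markers of other cell types gave calls in both directions, where 11.8% of all genes rose and 8.96% fell. Of 10 endothelial genes 4 rose and 0 fell, led by the junction gene Cldn5 at 56.6, 102 and 47.4 CPM in mdx and 17.3, 10.7 and 12.7 CPM in IL5Tg (log2 change 2.34, SE 0.41, edgeR adjusted p = 0.0033), while Pecam1 did not pass (0.14). Of 9 mast cell and basophil genes 4 rose, the proteases Cma1, Mcpt4 and Tpsb2 being at 5.97, 3.38 and 0.579, 4.67, 0.736 and 1.06 and 4.44, 1.00 and 0.530 CPM in mdx S4, S5 and S6 and below 1 CPM in every IL5Tg library. In edgeR 0 fell, with 2 lower at an unadjusted p under 0.05, and DESeq2 called 2 lower and limma voom 1 (median of the list 0.136). Those 2 were Ms4a2, a chain of the IgE receptor, at a log2 change of -2.51 (SE 0.95), and Hdc, which makes histamine, at 448, 751 and 520.1 CPM in mdx and 816, 749.8 and 904 CPM in IL5Tg with -0.52 (SE 0.18); the groups overlapped for both. Of 10 T, NK and B cell genes tested 3 rose and 4 fell; 9 more of that list were too low to test, Cd3e, Cd8a and Ms4a1 among them. The T cell chain Cd3d was at 0.188, 0.167 and 0.193 CPM in mdx and 2.5, 2.69 and 2.27 CPM in IL5Tg (log2 change -3.73) and the interleukin-7 receptor Il7r at 19.1, 8.5 and 6.87 CPM in mdx and 1.47, 2.40 and 0.857 CPM in IL5Tg (log2 change 2.86). Of 6 red cell genes 0 passed in edgeR, 0 had an unadjusted p under 0.05 and 0 were called by DESeq2. Of 4 Y-linked genes 3 fell modestly, with Ddx3y at 182, 174 and 165 CPM in mdx and 245, 224 and 254 CPM in IL5Tg (log2 change -0.47), and Xist, the female marker, was too low to test. Cma1 lost the call with limma voom (adjusted p = 0.074). Mcpt4 lost the call without mdx S4, IL5Tg S7, IL5Tg S8 or IL5Tg S9 and with limma voom (adjusted p 0.055 to 0.1). Tpsb2 lost the call without mdx S4, IL5Tg S7, IL5Tg S8 or IL5Tg S9, with limma voom and without IL5Tg S7 and mdx S5 (adjusted p 0.051 to 0.16). Ddx3y lost the call without mdx S4, mdx S5, mdx S6 or IL5Tg S9, with library totals only, with no filter on low counts and without IL5Tg S7 and mdx S5 (edgeR adjusted p 0.055 to 0.09). Ms4a2 passed with DESeq2 and with no filter on low counts. Hdc passed without mdx S5, with DESeq2, with limma voom, with no filter on low counts and without IL5Tg S7 and mdx S5. Il7r was at 2.25 without mdx S4, Cma1 was at 3.35 without mdx S4, Mcpt4 was at 2.20 without mdx S4 and 4.18 without IL5Tg S7 and mdx S5, as log2 changes. Tpsb2 was at 1.59 without mdx S4 as a log2 change. Endothelial genes called higher numbered 2 without IL5Tg S8 or IL5Tg S9. Mast cell genes called higher numbered 1 without mdx S4, IL5Tg S8 or IL5Tg S9 and 2 without IL5Tg S7. T, NK and B cell genes called higher numbered 1 without IL5Tg S8. T, NK and B cell genes called lower numbered 2 without mdx S4, mdx S5 or IL5Tg S7. Y-linked genes called lower numbered 1 without mdx S4, mdx S5, mdx S6 or IL5Tg S9.

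**Figure D5:**
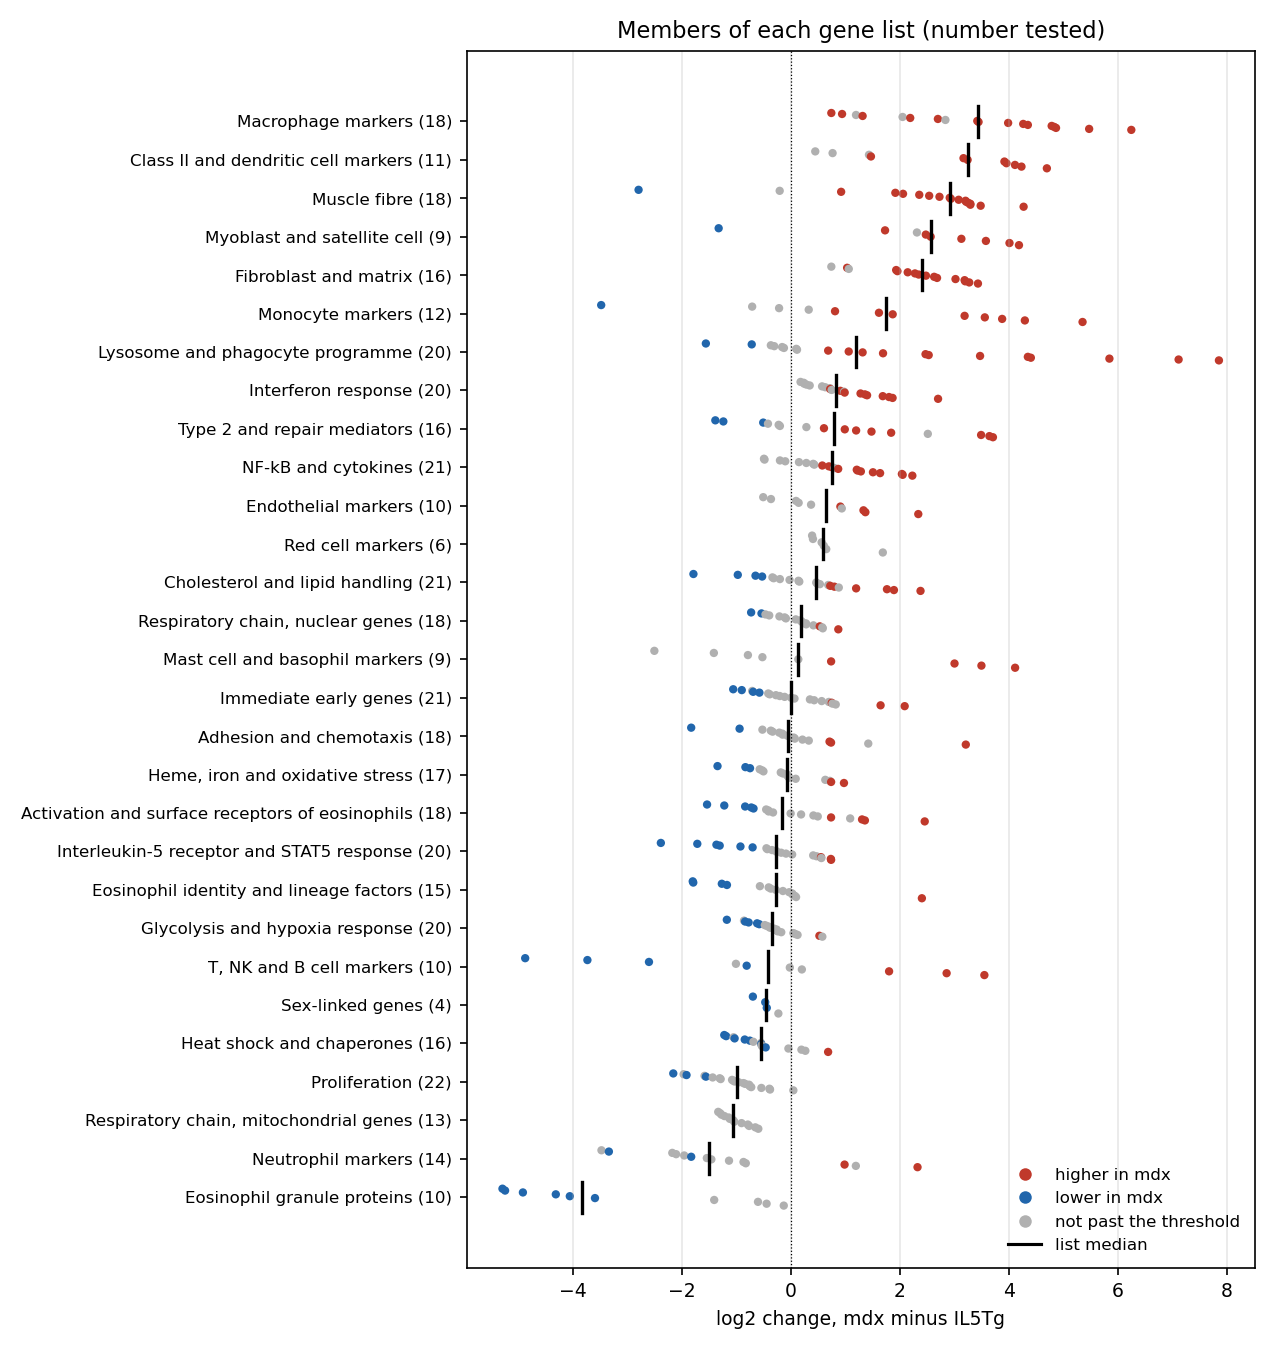
Log2 change, mdx minus IL5Tg (x axis), of every tested member of the 29 gene lists, ordered by list median (black bar); red points were called higher, blue lower and grey did not pass. Macrophage markers have the highest median at 3.43 and eosinophil granule proteins the lowest at -3.83.

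For the granule and proliferation lists 0 genes were called higher, and for the interferon, macrophage, class II, fibroblast and endothelial lists 0 were called lower. In each of these cases 0 had an unadjusted p under 0.05 in that direction in edgeR, and DESeq2 called 0.

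Called genes were spread over the genome, with some uneven shares that are given without a test. On chromosome 13, 98 of 654 genes fell (15.0%) and 60 rose (9.2%), while on chromosome 19, 25 of 494 fell (5.1%) and 78 rose (15.8%) and on chromosome 17, 38 of 733 fell (5.2%) and 105 rose (14.3%). Of 13263 protein coding genes 1815 rose and 1198 fell. Of 931 unverified transcript models, the class TEC in the annotation, 5 rose and 123 fell.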

How the data were processed

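RNA from sorted muscle eosinophils of 9 mouse samples was sequenced, 3 per group, and the 6 mdx and IL5Tg libraries were compared. The authors deposited 1 table of expected counts per gene from RSEM, for 54146 genes, of which 6.03% of the values are not whole; they were rounded to whole numbers here. Per the submitters' processing notes, tools used were RSEM 1.3.0, STAR 2.5.3, limma and cutadapt 2.10, with build mm10. Their settings, the annotation and any use of strand were not given in the sources used here. Of the gene IDs 54079 are in GENCODE M21, which gave positions and biotypes. Symbols are those of the deposited table, in which 118 genes share a symbol with another.

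Genes were kept with edgeR's filterByExpr (minimum count 10) and scaled by TMM. The quasi-likelihood test of edgeR 4.0.16 in R 4.3.3 was fitted to all 9 libraries with 1 mean per group. Genes were called at a Benjamini-Hochberg adjusted p under 0.05 over all genes tested, and the test was tested on simulated data. Levels are TMM-normalised CPM, counts scaled to a common library size, and values set side by side for different genes are not per length. Where nothing in the labels names the animals, p-values measure the spread between these samples. Total counts ran from 26752780 to 41627444 per library, so counting error is small except for genes near 1 CPM. No pair of the 6 libraries agreed within sampling noise. Alternatives used DESeq2 1.42.0, limma voom (limma 3.58.1), RLE factors, library totals only, no filter and a stricter filter, no mitochondrial, haemoglobin or small RNA genes, only the 6 libraries compared, each library left out, and IL5Tg S7 with mdx S5 left out.

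The comparison, the 29 gene lists and the tests were chosen with earlier results of these data known. Genes were named by a rule: the 14 largest rises and the 14 largest falls among called genes of at least median level whose groups did not overlap, per list the tested genes ranked 1 to 4 by p, and Il5, Dmd, Ccr3, Siglecf, Epx and Trem2. 68 further list members were named after their values were seen, and so were the NF-kB and interferon motifs and the windows printed. The values of paralogs and overlapping genes (Ear genes, class II genes, globins, Cmtm1 with Cmtm2a) are uncertain, since shared reads may be split between them. Of 15878 symbols tested 9969 had a RefSeq promoter window, 12781 windows in all.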

Additional observations from a re-analysis of the deposited data

How the results depend on the processing

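Of 166 named genes that were called, 109 kept the call and direction under all 15 alternatives that gave them a value, and 0 values changed sign with a call. Of the called genes 56.8% were higher in mdx, against 70.7% with library totals only, where the median log2 change of all genes was 0.116 in place of 0.013, and 47.4%, 45.8% and 48.3% without IL5Tg S7, S8 or S9. With 3 libraries a group, 1 library decides many calls near the threshold, and the cause of these moves was not tested. With DESeq2, the counts of called genes that moved by over 1.5 times were 2207 all genes lower, 5 adhesion lower, 6 immediate early higher, 4 nuclear respiratory lower, 11 proliferation lower, 2 monocyte lower. With library totals only, the counts of called genes that moved by over 1.5 times were 5 interleukin-5 response higher, 3 activation lower, 5 immediate early higher, 2 immediate early lower, 2 glycolysis higher, 0 nuclear respiratory lower, 1 lipid lower, 1 lysosome lower, 4 heat shock lower, 1 neutrophil lower, 2 T, NK and B cell lower, 0 myoblast lower, 1 Y-linked lower. Without IL5Tg S7 and mdx S5, the counts of called genes that moved by over 1.5 times were 1 interleukin-5 response higher, 5 adhesion lower, 0 glycolysis higher, 1 nuclear respiratory lower, 6 heme and iron lower, 3 heat shock lower, 0 proliferation lower, 2 monocyte lower, 1 neutrophil lower, 5 class II higher, 1 T, NK and B cell lower, 0 myoblast lower, 1 Y-linked lower. With only the 6 libraries compared, the counts of called genes that moved by over 1.5 times were 0 granule lower, 0 glycolysis higher, 1 nuclear respiratory lower, 2 lipid lower, 4 heat shock lower, 1 proliferation lower, 1 neutrophil higher, 1 neutrophil lower, 1 T, NK and B cell lower, 0 myoblast lower. With no filter on low counts, the counts of called genes that moved by over 1.5 times were 6 immediate early higher, 2 monocyte lower, 1 neutrophil higher, 1 neutrophil lower, 0 myoblast lower, 1 Y-linked lower. With limma voom, the counts of called genes that moved by over 1.5 times were 0 glycolysis higher, 2 lipid lower, 1 T, NK and B cell lower, 1 mast cell higher. With RLE factors, the counts of called genes that moved by over 1.5 times were 0 glycolysis higher, 6 proliferation lower, 2 monocyte lower. With the stricter filter, the counts of called genes that moved by over 1.5 times were 2 glycolysis higher, 2 monocyte lower, 1 neutrophil lower, 2 T, NK and B cell lower, 1 mast cell higher. Without mitochondrial, haemoglobin and small RNA genes, the counts of called genes that moved by over 1.5 times were 2 glycolysis higher, 2 monocyte lower. With single libraries left out, called genes numbered 948 to 1707 all genes higher, 1013 to 1380 all genes lower, 0 to 2 interleukin-5 response higher, 6 to 8 interleukin-5 response lower, 1 to 7 granule lower, 1 identity higher, 4 to 6 identity lower, 4 to 7 activation higher, 4 to 6 activation lower. Further ranges were 1 to 4 adhesion higher, 2 to 3 adhesion lower, 10 to 13 NF-kB higher, 1 to 3 immediate early higher, 2 to 5 immediate early lower, 3 to 11 interferon higher, 6 to 8 type 2 and repair higher, 2 to 5 type 2 and repair lower, 0 to 1 glycolysis higher. The ranges went on with 2 to 7 glycolysis lower, 0 to 2 nuclear respiratory higher, 0 to 2 nuclear respiratory lower, 3 to 7 lipid higher, 1 to 4 lipid lower, 10 to 12 lysosome higher, 2 to 3 lysosome lower, 0 to 2 heme and iron higher, 2 to 5 heme and iron lower. Other lists gave 0 to 1 heat shock higher, 2 to 10 heat shock lower, 0 to 13 proliferation lower, 12 to 15 macrophage higher, 5 to 8 monocyte higher, 1 to 2 monocyte lower, 1 to 3 neutrophil higher, 1 to 8 neutrophil lower, 6 to 7 class II higher. There were also 1 to 3 T, NK and B cell higher, 2 to 4 T, NK and B cell lower, 1 to 4 mast cell higher, 13 to 16 muscle fibre higher, 1 muscle fibre lower, 7 to 8 myoblast higher, 0 to 1 myoblast lower, 10 to 13 fibroblast higher, 2 to 4 endothelial higher. Last came 1 to 3 Y-linked lower. No paired analysis was possible because the library numbers in the table cannot be tied to the replicate numbers in the sample titles.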
